A study of Rattus norvegicus with 6 samples.

Results

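The genes of the major histocompatibility complex (MHC) class II molecules measured here were RT1-Ba, RT1-Bb and RT1-Da, together with Cd74, their invariant chain. They are 4 of the 29039 features in the count table, and all 4 passed the filter on low counts. They were selected on their difference between predator odor (PO) and control odor in these same libraries, so each difference between the groups given for them is a description without a test. The RNA came from the ventromedial hypothalamus (VMH) of 6 male Sprague-Dawley rats, labelled as 10 months old. For 20 minutes, 3 rats had in the home cage a piece of towel on which ferrets had slept (PO, libraries P8, P13 and P14), and 3 had a clean piece (control odor, libraries C2, C3 and C4). All 6 rats had been habituated to handling and to the clean towel before that day. Frozen brains were sectioned, the VMH of both sides was punched out, and each rat gave 1 library.

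Class II molecules are pairs of an alpha and a beta chain that carry peptides from engulfed proteins to the cell surface, where helper T cells read them. In the rat, RT1-Ba encodes the alpha chain and RT1-Bb the beta chain of the RT1-B molecule, while RT1-Da encodes the alpha chain of RT1-D. The invariant chain encoded by Cd74 binds newly made chain pairs, blocks their peptide groove and steers them to the endosome, and it is also a receptor for macrophage migration inhibitory factor. Dendritic cells, B cells and macrophages express these genes strongly. In the brain the macrophages of the meninges and vessels are known for them, while resting microglia hold little. Transcription of the whole group is driven by the coactivator CIITA, which acts through conserved promoter elements called the X box and the Y box.

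The promoter windows of the 4 genes are shown because these elements are what such genes are known to share. The letters of the windows were not used to choose the genes, but their class II family was. The matches are therefore not independent of the choice. Each window of 300 bases was taken from the RefSeq promoter table of build GRCr8, which runs from 250 bases before to 50 bases after a gene's start, and all 4 genes matched by symbol. Capitals mark the core of the Y box (CTGATTGG), the core of the X box (CCNAGNAAC) and the last letters of the Y box core (ATTGG), each searched on both strands. The last of these lies inside the Y box core, and on the opposite strand it reads CCAAT. The windows lie at chr20:4576807-4577106 (plus strand) for RT1-Ba, chr20:4604069-4604368 (minus strand) for RT1-Bb, chr20:4515165-4515464 (plus strand) for RT1-Da and chr18:56526956-56527255 (plus strand) for Cd74.
RT1-Ba: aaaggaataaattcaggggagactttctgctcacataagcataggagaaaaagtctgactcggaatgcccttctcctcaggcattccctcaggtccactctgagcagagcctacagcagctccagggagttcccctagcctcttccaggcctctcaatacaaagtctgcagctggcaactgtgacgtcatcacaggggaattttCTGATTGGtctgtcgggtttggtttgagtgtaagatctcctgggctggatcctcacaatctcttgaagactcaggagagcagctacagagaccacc
RT1-Bb: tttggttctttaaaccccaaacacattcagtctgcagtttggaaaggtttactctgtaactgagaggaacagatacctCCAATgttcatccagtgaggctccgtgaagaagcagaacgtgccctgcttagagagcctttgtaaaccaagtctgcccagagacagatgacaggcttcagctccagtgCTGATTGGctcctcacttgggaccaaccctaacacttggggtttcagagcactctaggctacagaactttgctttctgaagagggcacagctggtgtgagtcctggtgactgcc
RT1-Da: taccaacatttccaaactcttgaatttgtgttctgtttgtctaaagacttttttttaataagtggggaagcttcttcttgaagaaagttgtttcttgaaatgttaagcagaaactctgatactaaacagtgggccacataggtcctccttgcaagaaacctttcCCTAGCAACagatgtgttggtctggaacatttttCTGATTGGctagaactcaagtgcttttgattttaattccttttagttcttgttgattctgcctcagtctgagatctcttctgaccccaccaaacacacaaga
Cd74: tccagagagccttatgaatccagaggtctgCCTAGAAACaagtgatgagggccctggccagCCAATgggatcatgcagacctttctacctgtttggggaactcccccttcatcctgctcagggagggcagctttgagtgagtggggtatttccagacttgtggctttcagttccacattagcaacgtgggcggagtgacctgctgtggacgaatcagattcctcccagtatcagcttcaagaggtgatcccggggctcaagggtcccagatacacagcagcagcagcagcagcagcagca

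The Y box core was found in the windows of RT1-Ba, RT1-Bb and RT1-Da, that is in each of the 3 chains. It began 46 bases before the start of RT1-Ba, 64 bases before that of RT1-Bb and 52 bases before that of RT1-Da. Of all 33469 windows in the table, 1172 (3.5%) held these letters. The X box core was found in RT1-Da, 86 bases before the start, and in Cd74, 220 bases before the start, and 1902 windows (5.68%) held it. The window of Cd74 is set on a start site 135 bases inside the outermost annotated start of the gene, and from that outer start the match lies 85 bases upstream. The window of RT1-Da is likewise set 22 bases inside its outermost start, from which its Y box core lies 30 and its X box core 64 bases upstream. The short ATTGG was found in the windows of all 4 genes but also in 37.5% of all windows. In Cd74 it stood on the opposite strand only, 189 bases before the start.

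An X box core followed by a Y box core with 10 to 30 bases between them was found in 3 of the 33469 windows (0.00896%). RT1-Da was 1 of them, with 25 bases between the cores, and RT1-Ha, another class II gene, was a second one. With ATTGG on either strand in place of the Y box core, a wider search chosen after the matches had been seen, 32 windows (0.0956%) held the pair, and those of RT1-Da, Cd74, RT1-DOb and RT1-Ha were among them. Of the other class II genes looked up by symbol, 6 had a window, and the Y box core was found in 4 of them (RT1-Db1, RT1-Db2, RT1-DOa and RT1-Ha). The X box core was found in 2 of the 6 (RT1-DOb and RT1-Ha). Only exact letters were searched, so a window without a match may still hold the element in other letters. A match of letters is a description of the window and not a measured site, and binding was not measured in these rats.

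**Figure D1:**
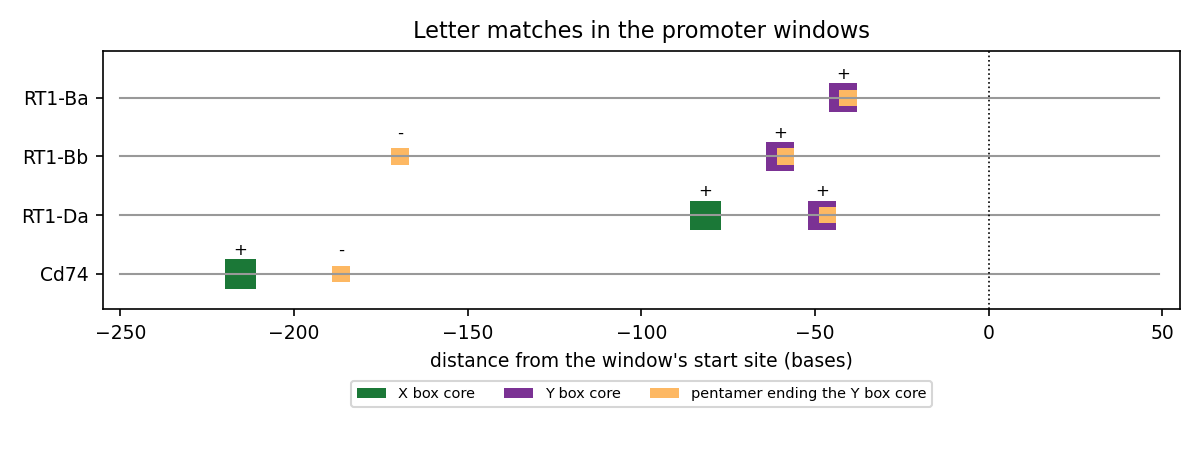
Position of each letter match in the promoter windows of the 4 genes, in bases from the start site of the window (dotted line), with plus and minus giving the strand of the match relative to the gene. The Y box core lies 46, 64 and 52 bases before the start in RT1-Ba, RT1-Bb and RT1-Da. The exact letters of the X box core precede it in RT1-Da only, and elements with other letters were not searched. In Cd74 the X box core and the pentamer on the opposite strand lie 220 and 189 bases before the start.

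All 4 genes had lower values in every PO library than in any control odor library. RT1-Ba, the alpha chain of RT1-B, had 12, 6 and 3 counts in PO libraries P8, P13 and P14, against 47, 34 and 48 counts in control odor libraries C2, C3 and C4. As normalized CPM (counts per 1000000 of the library total, scaled by edgeR's TMM factors) these were 0.6, 0.331 and 0.179 in the PO libraries, against 2.66, 2.08 and 2.59 in the control odor libraries. The groups did not overlap, and the lowest control odor value was 3.47 times the highest PO value. RT1-Ba averaged 0.37 ± 0.213 CPM after PO and 2.44 ± 0.315 CPM after control odor (SD, n = 3 each). The fitted log2 fold change was -2.67 (standard error 0.41), which is 6.36-fold lower after PO and the lowest of the 4.

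RT1-Bb, the beta chain that pairs with RT1-Ba, had 58, 33 and 21 counts in P8, P13 and P14, against 116, 117 and 163 counts in C2, C3 and C4. Its CPM were 2.9, 1.82 and 1.26 in the PO libraries, against 6.57, 7.17 and 8.79 in the control odor libraries. Here too the groups stood apart, with a factor of 2.26 between the lowest control odor and the highest PO value. The means were 1.99 ± 0.836 CPM after PO and 7.51 ± 1.15 CPM after control odor (SD, n = 3 each). The log2 fold change of RT1-Bb was -1.9 (standard error 0.28), or 3.73-fold lower.

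RT1-Da, the alpha chain of the other class II molecule, had 60, 34 and 10 counts in P8, P13 and P14, against 101, 90 and 139 counts in C2, C3 and C4. In CPM these were 3.0, 1.88 and 0.598 for the PO libraries, against 5.72, 5.52 and 7.49 for the control odor libraries. The groups did not overlap, but P14 stood far below the other PO libraries, and the highest PO value was 5.02 times the lowest. RT1-Da averaged 1.83 ± 1.2 CPM after PO and 6.24 ± 1.09 CPM after control odor (SD, n = 3 each). Its log2 fold change was -1.75 (standard error 0.45), or 3.37-fold lower, and came to -1.35 with P14 left out and -2.31 with P8 left out.

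Cd74, the invariant chain, was the most abundant of the 4, with 308, 181 and 132 counts in P8, P13 and P14, against 488, 385 and 496 counts in C2, C3 and C4. The CPM were 15.4, 9.99 and 7.9 in the PO libraries, against 27.6, 23.6 and 26.7 in the control odor libraries. The 2 groups were closest for this gene, since the lowest control odor value was 1.53 times the highest PO value. Its means were 11.1 ± 3.88 CPM after PO and 26.0 ± 2.12 CPM after control odor (SD, n = 3 each), and the log2 fold change was -1.22 (standard error 0.22), or 2.33-fold lower. In bulk tissue, fewer cells of a type and less RNA per cell cannot be told apart, and this holds for all 4 genes.

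**Figure D2:**
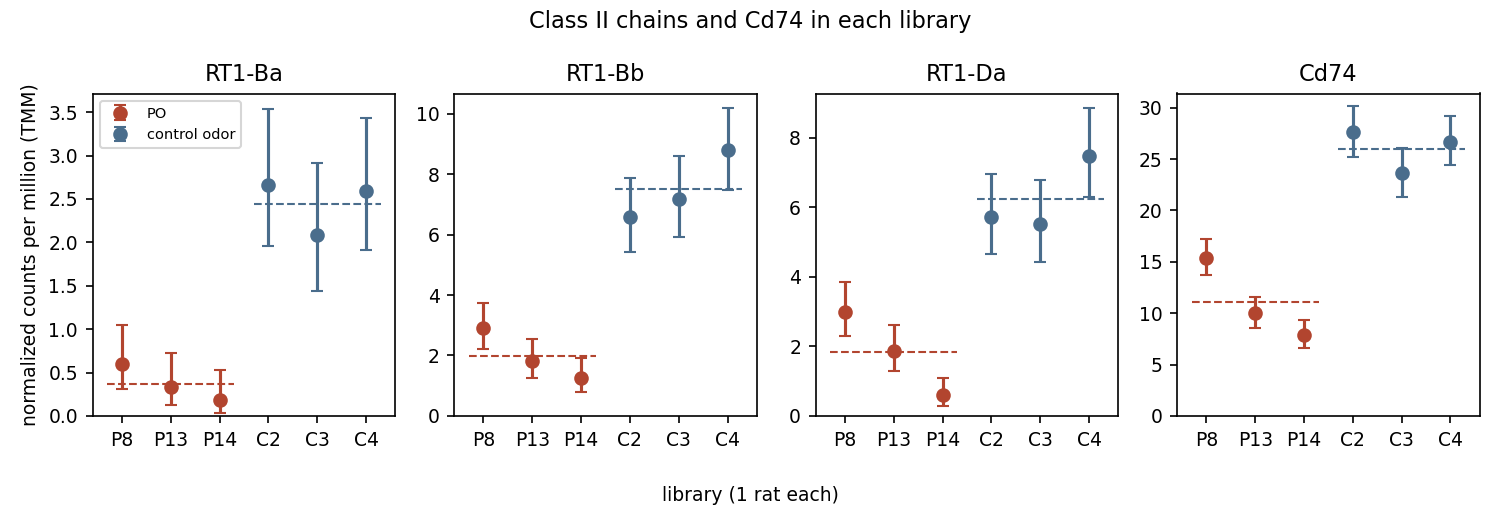
CPM of each gene in each library, PO in red and control odor in blue, each point 1 rat. Bars are exact 95% Poisson intervals of the count and cover counting error only, and dashed lines are group means. In all 4 panels the 3 PO libraries lie below the 3 control odor libraries, and P8 is the highest PO library.

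The precision of these values differed with the counts. The exact 95% Poisson interval for the 3 counts of RT1-Ba in P14 ran from 0.619 to 8.77 counts, while that for the 132 counts of Cd74 ran from 110.0 to 157.0. These intervals cover counting error only, since reads copied by PCR are not independent molecules. For Cd74 and RT1-Bb the interval of every PO library, in CPM, lay below that of every control odor library. The same held for RT1-Ba and RT1-Da, where the nearest bounds were 1.05 CPM (P8) and 1.44 CPM (C3) for RT1-Ba, and 3.86 CPM (P8) and 4.43 CPM (C3) for RT1-Da.

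Within the PO group the 4 genes took the same order, with P8 highest, P13 next and P14 lowest. This order was found in 2802 of the 16685 features tested (16.8%), and in 581 (26.3%) of the 2208 features whose PO libraries all lay below their control odor libraries. For RT1-Ba the intervals of all 3 PO libraries overlapped, and for Cd74 those of P13 (8.58 to 11.6 CPM) and P14 (6.61 to 9.37 CPM) did. The interval of P8 for Cd74, 13.7 to 17.2 CPM, lay above both. The control odor libraries did not share an order, with C2 highest for RT1-Ba and Cd74 and C4 highest for RT1-Bb and RT1-Da. The relative spread was wider after PO, where the coefficient of variation lay between 34.9% (Cd74) and 65.9% (RT1-Da), against 8.17% (Cd74) to 17.4% (RT1-Da) after control odor. Counting error alone is relatively larger at the lower counts after PO, and its part in this spread was not separated.

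All 4 genes were among the 2208 of 16685 features (13.2%) in which every PO library lay below every control odor library. With edgeR, 2 of the 4 (RT1-Ba and RT1-Bb) were among the 35 features (0.21% of those tested) that were lower after PO at an adjusted p under 0.05. With DESeq2, 3 of the 4 (RT1-Bb, RT1-Da and Cd74) were among the 285 (2.08% of 13707), and its filter on low counts left the adjusted p of RT1-Ba empty. Since this contrast chose the genes, nothing is read from these counts. The number of the 4 called by edgeR was 0 without C2, C3, C4 or P14, 4 without P8 and 2 without P13. Counted from the lowest log2 fold change, RT1-Ba stood at place 11, RT1-Bb at 45, RT1-Da at 54 and Cd74 at 142 of the 16685.

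**Figure D3:**
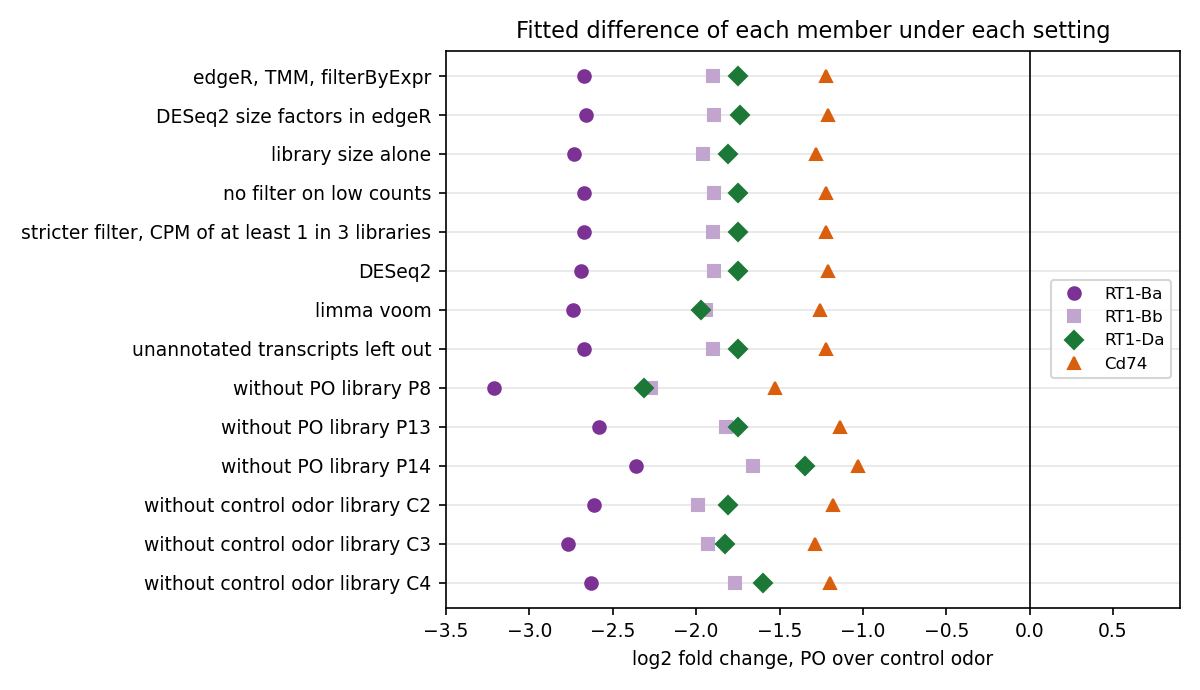
Fitted log2 fold change, PO over control odor, of each gene (symbols) under edgeR as used for the reported values (top) and under each alternative tool, scaling, filter or left-out library. All values are below 0, from -3.21 for RT1-Ba without P8 to -1.03 for Cd74 without P14, and RT1-Ba is the lowest in each row. The genes were chosen on this contrast and their groups do not overlap, so the sign could hardly change.

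Levels of different genes were compared per length, on the deposited FPKM, in which the authors divided counts by gene length and library total. The level of Cd74 was highest in each of the 6 libraries and that of RT1-Ba lowest. Cd74 averaged 8.25 ± 2.96 FPKM after PO and 20.1 ± 1.55 FPKM after control odor (SD, n = 3 each). Over all 6 libraries its mean level exceeded that of 65.4% of the features tested. RT1-Da (1.51 ± 1.0 FPKM after PO and 5.35 ± 0.873 FPKM after control odor) and RT1-Bb (1.29 ± 0.553 FPKM after PO and 5.06 ± 0.723 FPKM after control odor) did not differ from each other beyond their spread in either group. RT1-Ba stood at 0.325 ± 0.189 FPKM after PO and 2.23 ± 0.275 FPKM after control odor, and its mean level over the 6 libraries exceeded that of 18.4% of the features tested.

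The ratio of the invariant chain to the 3 class II chains measured here was not the same in the groups. No beta chain of RT1-D is among these 3. Cd74 had 2.35, 2.46 and 4.01 times the summed FPKM of the 3 chains in P8, P13 and P14, against 1.82, 1.59 and 1.41 times in C2, C3 and C4. The ratio was higher in every PO library than in any control odor library, at 2.94 ± 0.928 after PO and 1.61 ± 0.206 after control odor (SD, n = 3 each). Of the counts of all 4 genes, Cd74 made up 70.3% in P8 (exact Clopper-Pearson 95% interval 65.8% to 74.6%), against 64.9% in C2 (61.4% to 68.3%), so that the nearest libraries of the 2 groups overlapped in their counting error. The interval of P13 (71.3%, 65.3% to 76.7%) also overlapped that of C2. In P14, by contrast, the share was 79.5% (72.6% to 85.4%), which lay above the interval of each control odor library.

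Within RT1-B, the alpha chain was scarcer relative to its beta chain after PO. The FPKM of RT1-Ba were 0.28, 0.246 and 0.193 times those of RT1-Bb in P8, P13 and P14, against 0.548, 0.393 and 0.398 times in C2, C3 and C4. The groups did not overlap, but RT1-Ba had only 12, 6 and 3 counts in the PO libraries. In P14 it made up 12.5% of the counts of the pair, with an interval from 2.66% to 32.4%. This takes in the 22.5% of C3 and the 22.7% of C4, and the intervals of P8 and P13 took in both values as well. Those of P13 and P14 also took in the share of C2, while that of P8 ended just below it. The interval of every PO library overlapped that of every control odor library, so no single PO library was set apart beyond counting error. The PO mean of the FPKM ratio of RT1-Ba to RT1-Bb was 0.537 times the control odor mean, and 0.659 times with 0.1 added to each FPKM. The ratio of RT1-Da to RT1-Bb overlapped between groups, with 1.32, 1.31 and 0.606 in P8, P13 and P14 and 1.11, 0.979 and 1.08 in C2, C3 and C4. These ratios come from the values that chose the genes and were not tested.

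**Figure D4:**
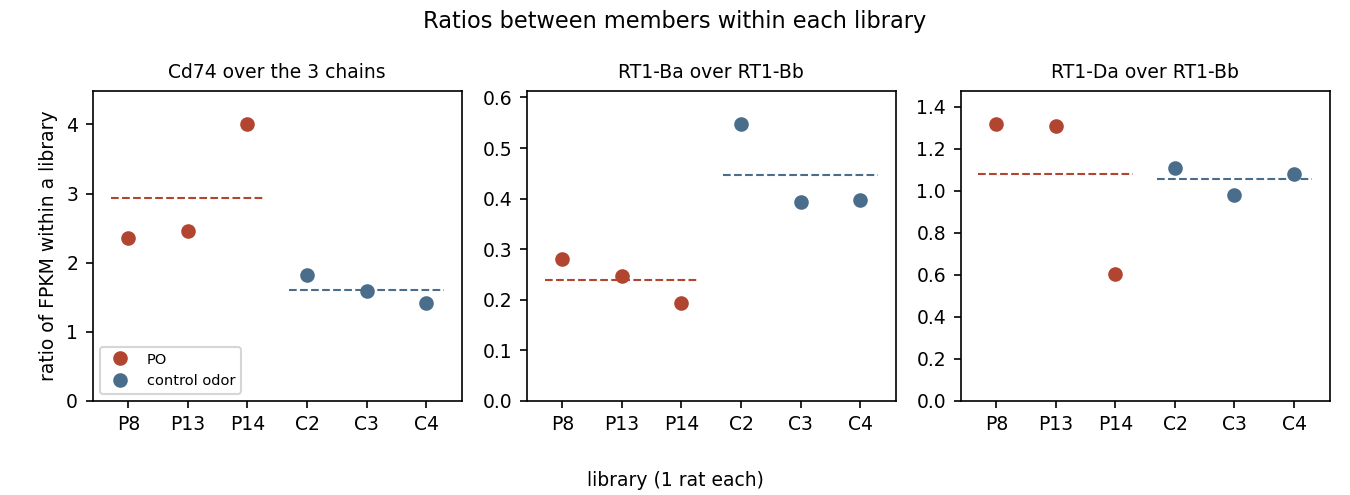
Ratio of FPKM between the genes within each library, PO in red and control odor in blue, with dashed lines at group means. Cd74 over the 3 chains is higher in all 3 PO libraries and RT1-Ba over RT1-Bb is lower in all 3, while RT1-Da over RT1-Bb overlaps, with P14 at 0.606.

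Across the 6 libraries the log2 CPM of the 4 genes moved together. Pearson's r between pairs lay between 0.95 (RT1-Ba with RT1-Da) and 0.99 (RT1-Ba with RT1-Bb and with Cd74). After the group means had been taken out, so that only differences between rats of a group remained, r lay between 0.9 (RT1-Da with Cd74) and 0.99 (RT1-Ba with Cd74). These points are 6 libraries that share group, depth and punch, and r is given as a description. Closeness of this kind was not particular to the 4, since 48 other features were at least as close to their mean profile as RT1-Da was, and 106 were as close as Cd74 was once the group means were out.

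Of the 165 other features tested that have a name, the 6 closest to the mean profile of the 4 genes over the 6 libraries were RGD1311744 (r = 0.998), Gjb2 (0.995), Rcn1 (0.988), Ppp3cb (0.982), Mtpn (0.981) and Cyp26b1 (0.979). Gjb2 encodes a gap junction protein, Rcn1 a calcium-binding protein of the endoplasmic reticulum, Ppp3cb a catalytic subunit of calcineurin and Cyp26b1 an enzyme that breaks down retinoic acid. Gjb2 had 7.0, 5.79 and 4.67 CPM in P8, P13 and P14, against 10.8, 10.1 and 12.2 CPM in C2, C3 and C4. RGD1311744 had 44.8, 41.2 and 35.1 CPM in P8, P13 and P14, against 57.8, 55.3 and 59.5 CPM in C2, C3 and C4. Both repeat the order of the PO libraries seen in the 4 genes, at a smaller difference between groups. With the group means taken out, the 4 closest were RGD1311744 (0.987), Gjb2 (0.973), Rcn1 (0.957) and Slc25a33 (0.913), a mitochondrial carrier. Unlike the 4 genes, Slc25a33 was higher after PO, at 77.1 ± 7.22 CPM against 61.4 ± 1.83 CPM after control odor (SD), and it stood at rank 390 of all features. Nearly all names here belong to features that the authors had called between the groups, so this order of closeness was drawn from a chosen set.

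Gjb2 also marks leptomeningeal fibroblasts, which form the inner meninges. Of the 18 markers listed for these cells, 11 have a name here. All 11 were lower in every PO library than in any control odor library, as were 13.2% of all features tested. Their summed CPM were 94.7, 55.6 and 51.5 in P8, P13 and P14, against 226.0, 181.0 and 281.0 in C2, C3 and C4. The markers did not all share the order of this sum within the PO group. Col1a1, Col1a2, Gjb2 and Slc13a4 had P8 above P13 above P14. In Col3a1, Igfbp2, Slc6a13, Slc22a6, Fmod, Osr1 and Crabp2, P14 lay above P13. Their median log2 fold change was -1.54, against -0.01 over all features tested, and edgeR called 4 of them lower (Col3a1, Slc6a13, Slc22a6 and Crabp2) and 0 higher, against 0.21% lower and 0.144% higher over all features tested. A marker has a name here mostly because the authors called it, so the counts, sum and median describe these 11 genes, are not independent of the contrast and do not stand for the whole list.

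Col3a1, a chain of fibrillar collagen, averaged 9.07 ± 2.27 CPM after PO and 23.8 ± 3.48 CPM after control odor. Slc6a13, a transporter of GABA and taurine, averaged 6.51 ± 0.839 CPM after PO and 18.3 ± 6.22 CPM after control odor. Slc22a6, an organic anion transporter, averaged 1.11 ± 0.475 CPM after PO and 6.23 ± 3.05 CPM after control odor. Crabp2, which binds retinoic acid in the cell, averaged 3.63 ± 0.479 CPM after PO and 10.2 ± 3.74 CPM after control odor (SD, n = 3 each). The log2 of the 11 summed markers had r = 0.977 with the mean profile of the 4 genes over the 6 libraries, and 0.848 with the group means taken out. The 4 genes were chosen, and the markers mostly named, on this contrast, so r over the 6 libraries is not independent of it. With the group means out, an r of 0.913 (Slc25a33) already stood at rank 390 of all features, so many features were closer than this sum. The part of leptomeningeal tissue in the lower class II values was not tested.

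**Figure D5:**
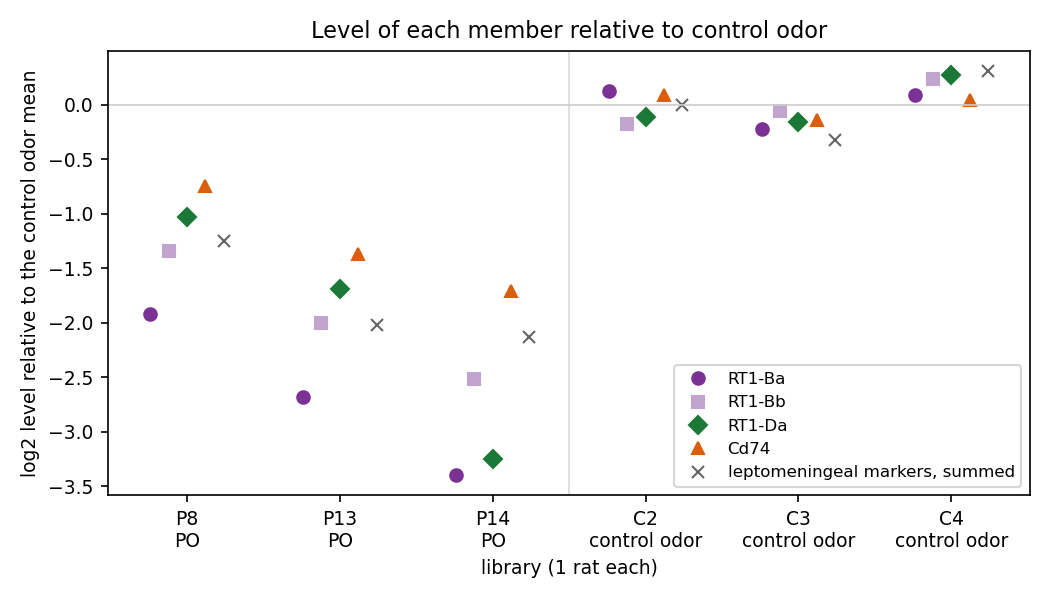
Log2 level of each gene, and of the 11 leptomeningeal markers summed, in each library relative to the mean of the control odor libraries (line at 0), 1 rat per column. The summed markers stand at -1.25, -2.02 and -2.13 in P8, P13 and P14, between Cd74 and RT1-Ba in each.

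The rest of the pathway could be followed only as far as features have names. Of 23 genes for class II peptide loading and its regulators, 29 for class I and its loading and 15 of the interferon gamma response, 0 have a name here. The same holds for the markers of microglia, border-associated macrophages, dendritic cells, B cells and T cells, so the cells that carried the class II RNA were not identified. Of the 6 genes whose products bind or cleave CD74, Ddt has a name. It encodes D-dopachrome tautomerase, a relative of macrophage migration inhibitory factor that also binds CD74. Ddt had 89.3, 88.7 and 99.0 CPM in P8, P13 and P14, against 65.8, 75.4 and 68.2 CPM in C2, C3 and C4, so that it was higher in 3 of 3 PO libraries, opposite to the 4 genes. The share of all features with every PO library above every control odor library was not counted. The reverse pattern was found in 13.2% of the features tested, so nothing is read from the lack of overlap. The log2 fold change of Ddt was 0.4 with a standard error of 0.07. The adjusted p by edgeR's quasi-likelihood test was 0.0481, which made it 1 of 24 features called higher (0.144% of 16685). The call was lost without C2, C3, C4 or P14. Ddt takes its name here from the authors' called genes, so its call is not independent of the contrast. The other listed genes whose products bind or cleave CD74 have no name here and were not seen.

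In the authors' annotation of the features they had called, all 4 genes stood together in 19 Gene Ontology terms, and the MHC class II protein complex and antigen binding listed no other feature. The KEGG pathway of antigen processing and presentation listed the 4 genes and an unannotated transcript assigned to Hspa8, a constitutive chaperone. That transcript had 101.0, 103.0 and 109.0 CPM in P8, P13 and P14, against 86.5, 75.0 and 85.1 CPM in C2, C3 and C4, and at 0.34 ± 0.07 (log2 fold change ± standard error) it missed edgeR's threshold at an adjusted p of 0.0583. These terms describe what the genes are annotated for and lend no support to their direction.

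Some limits bear on the chains. RT1 genes are highly polymorphic, Sprague-Dawley is an outbred stock, and all reads were aligned to the sequence of a single reference strain. Reads from alleles unlike that reference can fail to align, and reads shared between RT1 relatives can be split or dropped, so the values of RT1-Ba, RT1-Bb and RT1-Da carry this uncertainty. The RT1 alleles of the 6 rats were not analysed here. Cd74 lies on another chromosome, 18, outside the RT1 complex on chromosome 20.

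Library totals lay between 15835375 and 20316213 counts. Of the 16685 features passing the filter, edgeR called 59 at an adjusted p under 0.05 and limma voom 3. DESeq2 called 865 of the 13707 features to which it gave an adjusted p. Of the 11 markers of the VMH, only Nos1 has a name, so the tissue label could not be checked. Nos1 averaged 15.5 ± 1.99 CPM after PO and 22.8 ± 0.845 CPM after control odor (SD, n = 3 each). It was not called by edgeR (adjusted p = 0.0615) but was called lower by DESeq2 (adjusted p = 0.00618). Its highest PO value, 17.0 CPM, lay below its lowest control odor value, 22.2 CPM, as in 13.2% of all features tested. The name of Nos1 comes from the authors' called genes, so these values are not independent of the contrast.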

How the data were processed

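Deposited raw counts per gene and deposited FPKM were used. The authors removed adapter, poly-N and low quality reads, used HISAT2 (v2.1.0-beta) for alignment to Rnor_5.0 with Ensembl release 79, and obtained counts by HTSeq (v0.6.1, union mode). FPKM were computed by the authors from these counts. The submitters' processing notes also name CASAVA 1.8 and DESeq. Strand use in counting was not stated in sources used here.

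edgeR 4.0.16 in R 4.3.3 (TMM, filterByExpr, robust quasi-likelihood fit, Benjamini-Hochberg adjustment) was fitted to the counts of all 16685 features passing the filter, with odor as the only term. DESeq2 1.42.0 and limma 3.58.1 (voom) were alternatives, as were other scalings and filters, pseudocounts on FPKM and each library left out. Log2 CPM used a prior count of 1. The fits were tested on simulated data. Other computations used pandas 2.3.3, SciPy 1.17.1 and NumPy 2.4.6 in Python 3.11.15, and plots Matplotlib 3.10.9. No library was excluded.

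Names cover 170 of 29039 IDs, 40 from the paper's gene table, 125 from the authors' called genes and 5 from Entrez IDs of their KEGG table, of which only names and term membership were read. Their fold changes and p-values were not used. The members and all 13 gene lists were chosen with earlier results of these data known. Named were the 4 genes, the called members of each list (or, for lists with 0 or over 4 called, the 4 of smallest p), and the 6 and 4 named genes nearest to the 4 genes' mean profile. Hspa8 was added after its value was seen. No list has enough named members for a summary to stand for the list. The list of endothelial and mural markers and that of blood have no named member either. Promoter windows came from RefSeq, build GRCr8, which is not the build of the counts.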

Additional observations from a re-analysis of the deposited data

How the results depend on the processing

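The direction of all 4 genes was the same under every alternative run (15 for each gene). Because the genes were chosen on this contrast and their groups did not overlap, these runs could hardly have reversed it. Nothing is read from the constant direction. The log2 fold changes moved by no more than about the replicate SD except on the log2(FPKM + 1) scale. There RT1-Ba came to -1.29 and RT1-Bb to -1.43. The next largest move relative to that SD was that of RT1-Ba without P8, to -3.21, which is about as large as its replicate SD of 0.54. That pseudocount is large beside their levels. With a library left out, the log2 fold change lay between -3.21 and -2.36 for RT1-Ba, -2.27 and -1.66 for RT1-Bb, -2.31 and -1.35 for RT1-Da, and -1.53 and -1.03 for Cd74. The number of the 4 called was 2 with edgeR, 0 with limma voom, and between 0 and 4 with a library left out. Over the features that each run tested, which were not the same set, edgeR called 59, against 103 with library size alone and 433 with no filter on low counts. DESeq2 called 865 and limma voom 3, and edgeR called between 9 and 266 with a library left out. The cause of these differences in calls was not tested. Ddt also lost its call with library size alone and with limma voom. The ratio of RT1-Ba to RT1-Bb rests on 12, 6 and 3 counts of RT1-Ba after PO, so its size is not fixed at this depth. No paired analysis was possible because the groups share no replicate number.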
